A study of Homo sapiens with 2 samples.

Results

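The zinc finger genes of chromosome 19 were examined in DNase-seq hotspot lists of the osteosarcoma lines Saos-2 and U2OS. Members were the protein-coding RefSeq genes on chromosome 19 whose symbol is ZNF followed by digits only, and 240 of 20037 protein-coding genes met this rule. The rule used names and positions, and no measured value. Each line was represented by 1 library, with no treatment, time or further genotype in the labels, so replicate error could not be estimated and no test between the lines was possible. Each line is also 1 tumour-derived population, so a difference between the libraries cannot be told apart from a difference between the cultures or the preparations. DNase I cuts DNA that nucleosomes leave exposed, and a hotspot is a stretch with an excess of cuts. The window of a member is its gene span plus 10 kb on either side, and a hotspot belonged to a window when it overlapped it by at least 1 bp. All positions are on hg38.

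Most of these genes encode proteins with a Krüppel-associated box (KRAB) followed by a row of C2H2 zinc fingers. The fingers bind particular DNA sequences, often within transposable elements, and the KRAB domain recruits TRIM28 (KAP1), which brings the histone methyltransferase SETDB1, HP1 proteins and histone deacetylases. The genes arose by repeated tandem duplication and stand in clusters along chromosome 19. Their 3′ exons, which encode the fingers, are known to carry H3K9me3 in many cell types, whereas their starts are usually CpG-rich.

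The sequence before the start was taken from RefSeq promoters on GRCh38.p14, which held 210 of the 240 members. The 30 members with no entry were ZNF559, ZNF763, ZNF506, ZNF253, ZNF738, ZNF676, ZNF729, ZNF98, ZNF99, ZNF728, ZNF30, ZNF571, ZNF221, ZNF155, ZNF223, ZNF233, ZNF114, ZNF473, ZNF649, ZNF480, ZNF610, ZNF600, ZNF28, ZNF888, ZNF665, ZNF524, ZNF471, ZNF211, ZNF552 and ZNF417. The following 6 stretches are the 250 bases before the start, all on the minus strand, and stand for the patterns described further on. ZNF91 (chr19:23395472-23395721) and ZNF208 (chr19:22010944-22011193) are near copies of which only ZNF91 had a hotspot at its start. ZNF266 (chr19:9435574-9435823) holds a cAMP response element and had a start hotspot in both lines. ZNF235 (chr19:44305026-44305275) had, among the 210 members with an entry, the start hotspot of the highest significance in each line. ZNF180 (chr19:44500523-44500772) had a start hotspot only in U2OS and ZNF132 (chr19:58440154-58440403) only in Saos-2. Capitals mark the motifs named in the next paragraph.
ZNF91: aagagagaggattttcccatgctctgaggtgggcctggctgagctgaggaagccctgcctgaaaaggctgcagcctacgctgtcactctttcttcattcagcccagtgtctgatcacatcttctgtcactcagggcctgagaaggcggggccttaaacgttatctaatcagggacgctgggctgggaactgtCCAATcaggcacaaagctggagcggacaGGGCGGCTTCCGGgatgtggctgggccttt
ZNF208: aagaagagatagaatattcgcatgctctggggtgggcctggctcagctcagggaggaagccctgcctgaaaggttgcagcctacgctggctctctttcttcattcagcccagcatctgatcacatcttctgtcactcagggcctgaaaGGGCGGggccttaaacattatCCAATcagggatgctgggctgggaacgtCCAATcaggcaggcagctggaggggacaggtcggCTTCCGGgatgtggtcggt
ZNF266: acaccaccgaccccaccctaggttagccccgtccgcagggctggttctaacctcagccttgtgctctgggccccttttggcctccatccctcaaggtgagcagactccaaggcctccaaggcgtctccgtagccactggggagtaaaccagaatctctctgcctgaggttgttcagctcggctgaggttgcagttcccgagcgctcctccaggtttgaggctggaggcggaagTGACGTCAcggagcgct
ZNF235: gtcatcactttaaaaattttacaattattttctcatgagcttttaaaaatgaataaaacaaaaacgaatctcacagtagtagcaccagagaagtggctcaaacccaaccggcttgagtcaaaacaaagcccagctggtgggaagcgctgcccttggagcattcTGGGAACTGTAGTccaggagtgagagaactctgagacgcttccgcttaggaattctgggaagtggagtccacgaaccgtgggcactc
ZNF180: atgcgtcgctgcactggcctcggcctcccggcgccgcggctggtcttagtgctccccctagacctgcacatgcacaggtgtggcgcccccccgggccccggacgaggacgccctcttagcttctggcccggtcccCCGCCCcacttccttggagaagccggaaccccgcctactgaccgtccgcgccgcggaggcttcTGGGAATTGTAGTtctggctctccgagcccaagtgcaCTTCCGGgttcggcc
ZNF132: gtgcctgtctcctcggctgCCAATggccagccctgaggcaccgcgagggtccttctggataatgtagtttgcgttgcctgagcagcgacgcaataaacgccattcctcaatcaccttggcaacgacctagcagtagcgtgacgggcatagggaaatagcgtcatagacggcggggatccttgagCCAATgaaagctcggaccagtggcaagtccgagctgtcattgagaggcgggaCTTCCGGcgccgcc

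9 motifs were searched on both strands of the 300 bases from 250 before to 50 after the start. They were the TATA box TATAAA, the NF-Y motif CCAAT, the SP1 family motif GGGCGG, the ETS family motif CCGGAAG, the cAMP response element TGACGTCA, and the motifs of NRF1, YY1, Kaiso and ZNF143. The ZNF143 motif was taken as the core of its element, which is the run of capitals in ZNF235, and was added after the sequences had been seen. No motif of this set contains another. ETS motifs stood in 43.8% of the member promoters against 14.2% of the 15843 protein-coding promoters in the table, SP1 motifs in 69.0% against 58.4% and CCAAT in 53.3% against 36.4%. TATAAA was rarer, at 2.38% against 9.76%. The pooled shares did not hold in every cluster. CCAAT stood in 100% of entries from ZNF101 to ZNF254 and 91.7% from ZNF653 to ZNF791, but in 17.4% from ZNF565 to ZNF573. SP1 motifs stood in 95.8% from ZNF653 to ZNF791 and 30.4% from ZNF565 to ZNF573. ETS motifs stood in 72.4% from ZNF101 to ZNF254 and 8.33% from ZNF653 to ZNF791. The ZNF143 core stood in 29 of 210 members (13.8%) against 2.14% of protein-coding promoters. It was unevenly spread, with 9 of 19 members from ZNF575 to ZNF180, 8 of 23 from ZNF565 to ZNF573 and none of the 29 from ZNF101 to ZNF254. TGACGTCA stood in 7 members, of which 5 of 12 lay between ZNF414 and ZNF846: ZNF266, ZNF426, ZNF121, ZNF561 and ZNF562. The remaining counts were 6 members with the NRF1 motif, 2 with that of YY1 and 2 with that of Kaiso. A match is a description of the letters only.

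The Saos-2 list held 51556 hotspots and the U2OS list 63388, a ratio of 1.23. The number of reads behind each list is unknown, and depth therefore cannot be told apart from accessibility in any count below. Chromosome 19 outside the member windows followed the ratio of the lists, with 1360 hotspots in Saos-2 against 1659 in U2OS (1.22-fold). In the member windows the order was turned: 368 hotspots lay there in Saos-2 against 326 in U2OS (0.886-fold). As a log2 ratio, U2OS over Saos-2, this was −0.17 with an exact 95% counting interval of −0.39 to 0.04, against 0.30 over the whole lists. Covered bases were 124652 and 115043 bp in the same order. All intervals here cover counting error only, and 89 Saos-2 and 76 U2OS hotspots lay in the windows of at least 2 members, so neighbouring members are not independent.

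Hotspots around these genes were wider and stronger than the average of their list, mainly at the gene starts. Their median width was 299 bp in Saos-2 against 301 bp in U2OS, where the medians of the whole lists were 238 and 248 bp. The authors' −log10 significance, which is a value of each hotspot within its own list, had a median of 5.70 in Saos-2 against 6.43 in U2OS. The medians of the lists were 4.05 and 4.60. At starts the medians were 318 and 317 bp, with significances of 6.87 and 7.96. Away from starts they were 263 and 274 bp, with significances of 4.36 and 4.62, closer to the lists. Taken over all positions in the windows, the share found in both lines was above that of the lists, and for U2OS also above that elsewhere on the chromosome. Of the Saos-2 hotspots in the windows, 253 of 368 were overlapped by a U2OS hotspot (68.8%, Wilson 95% interval 63.8 to 73.3), against 66.1% elsewhere on the chromosome and 58.1% of the list. Of the U2OS hotspots, 251 of 326 were overlapped (77.0%, interval 72.1 to 81.2), against 53.6% and 46.9%. Sharing was highest at the starts, with 83.1% of Saos-2 and 85.6% of U2OS hotspots. Away from starts it was 46.8% in Saos-2 (interval 38.8 to 55.0), below the 58.1% of its list. In U2OS it was 60% there (69 of 115, interval 50.9 to 68.5), above the 46.9% of its list.

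A hotspot in the window was present in both lines for 198 members, in Saos-2 only for 19, in U2OS only for 10 and in neither for 13. Over all protein-coding genes these classes held 70.5% (both), 4.23% (Saos-2 only), 10.9% (U2OS only) and 14.4% (neither). The members thus exceeded the background for hotspots in both lines, at 82.5%, and were below it for U2OS only, at 4.17%. The 13 members with no hotspot in either line were ZNF177, ZNF560, ZNF506, ZNF486, ZNF493, ZNF98, the 4 neighbours ZNF723, ZNF728, ZNF730 and ZNF724, ZNF382, ZNF233 and ZNF154. A member was called higher in a line when its window held at least 2-fold and at least 200 bp more covered bases there. By this rule 46 members (19.2%) were higher in Saos-2, where 8.66% of all protein-coding genes were, and 33 members (13.8%) were higher in U2OS, where 20.2% were. The other genes of chromosome 19 gave 9.50% and 18.4%, and the 237 ZNF genes of the other chromosomes gave 10.5% and 13.5%. The share higher in U2OS was therefore alike in ZNF genes on and off the chromosome, whereas the share higher in Saos-2 was larger on chromosome 19. That larger share came mostly from a few clusters. Of the 46, 16 lay from ZNF101 to ZNF254, 12 from ZNF175 to ZNF331 and 9 from ZNF653 to ZNF791, with at most 2 in any other cluster. The other line had no hotspot at all in 17 of the 46 and in 9 of the 33. The matching shares among all called protein-coding genes were not computed, so these counts are not read as a trait of the members. Just inside the 2-fold limit were ZNF235 (1031 bp in Saos-2 against 509 in U2OS), ZNF765 (1067 and 524) and ZNF274 (879 and 431), and just outside it were ZNF383 (764 and 1430) and ZNF317 (1028 and 551). The median member had 529 covered bp in Saos-2 against 494.5 in U2OS.

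**Figure D1:**
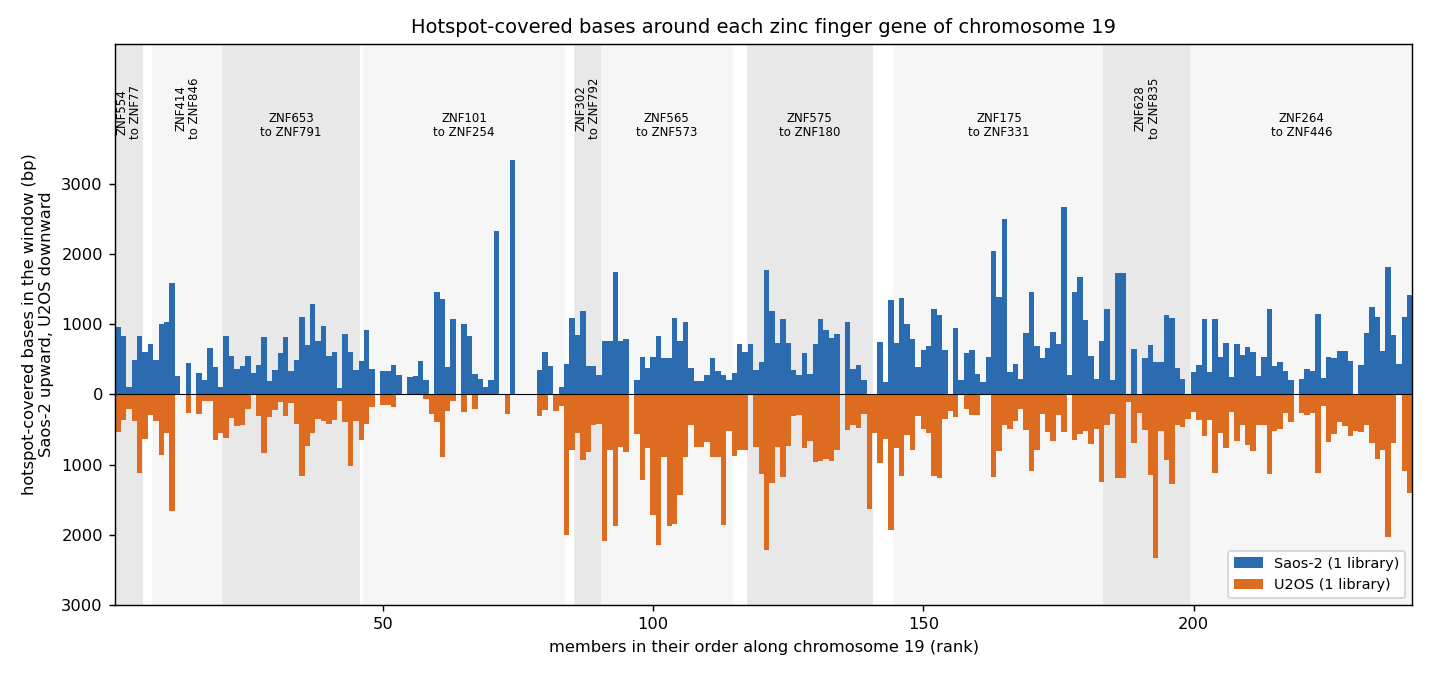
Hotspot-covered bases in the window of each of the 240 members, in their order along chromosome 19, for Saos-2 (blue, upward) and U2OS (orange, downward) with 1 library each; shading marks the 10 clusters. The tallest Saos-2 bar is ZNF99 with 3346 bp and no U2OS bases, and the tallest U2OS bar is ZNF582 with 2339 bp against 470 bp in Saos-2.

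Starts were the most regular feature of these genes. Among the 210 members with a promoter entry, a hotspot lay within 1 kb of an annotated start in both lines for 153, in Saos-2 only for 13, in U2OS only for 15 and in neither for 29. The background over 15843 protein-coding genes was 47.2%, 4.83%, 9.78% and 38.1%. A start hotspot was thus found in 79.0% of the members in Saos-2 and 80.0% in U2OS. The other genes of chromosome 19 had 45.5% and 49.8%, while ZNF genes elsewhere had 76.9% and 80.5%, so this frequency was shared by ZNF genes on other chromosomes. At 125 bp before the outermost start, 52.1% of the bases of the members were covered in Saos-2 and 54.5% in U2OS, against 31.0% and 33.6% in the other genes of the chromosome. For the 153 members with a start hotspot in both lines, the covered bases at the start were more in Saos-2 for 77, more in U2OS for 73 and equal for 3. Neither line was ahead in covered bases at the start over the members as a whole.

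**Figure D2:**
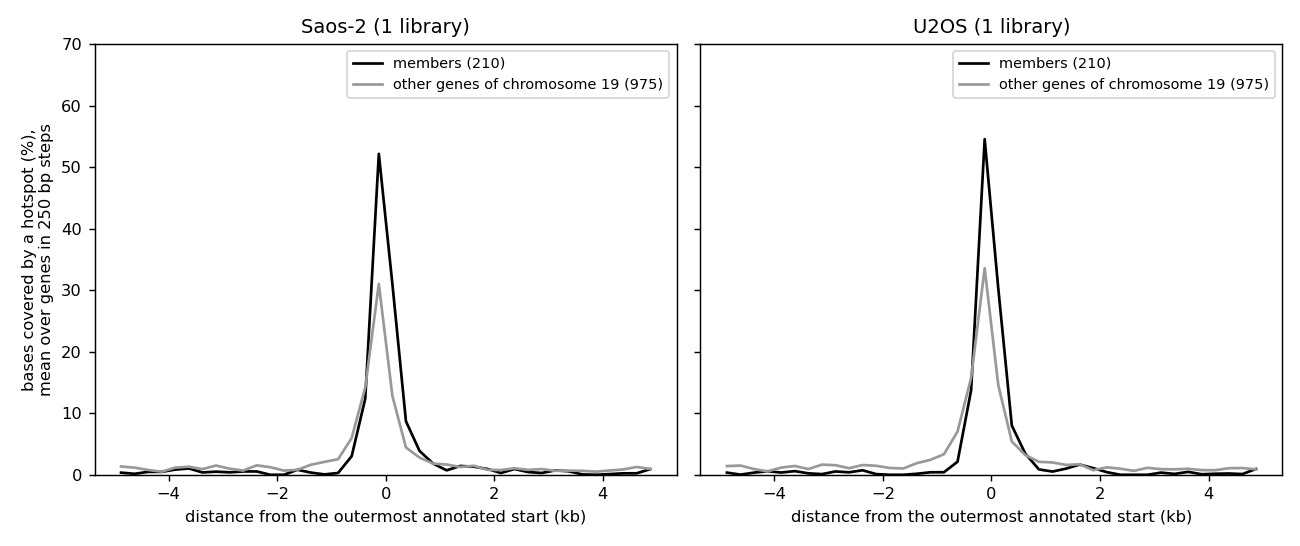
Share of bases covered by a hotspot in 250 bp steps from 5 kb before to 5 kb after the outermost annotated start, averaged over 210 members (black) and 975 other genes of chromosome 19 (grey), in Saos-2 (left) and U2OS (right). In both lines the members peak at 125 bp before the start, at 52.1% in Saos-2 and 54.5% in U2OS, and the other genes at 31.0% and 33.6%.

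The sequence before the start differed between members with and without a start hotspot. The median ratio of observed to expected CpG was 0.80 in members with a start hotspot in both lines and 0.56 in members with none. Of the 164 members with a ratio of 0.6 or more, 140 had a start hotspot in Saos-2 against 141 in U2OS. Of the 46 below 0.6, 26 had it in Saos-2 against 27 in U2OS. That second group was made up of 25 members from ZNF101 to ZNF254, with start hotspots in 8 and 9 of them, and 21 members of other places, with 18 and 18. Low CpG thus went with an empty start mainly in 1 cluster. Members with the ZNF143 core had a start hotspot in 25 of 29 cases in Saos-2 and 28 of 29 in U2OS, and those without it in 141 and 140 of 181. Those without it include all 29 entries from ZNF101 to ZNF254, of which 15 had no start hotspot in either line. The counts were not split by cluster, so the core cannot be told apart from the cluster here.

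The same member had the strongest start in both lines, and the next ranks differed. Among the 210 members with an entry, the start hotspot of ZNF235 reached a −log10 significance of 51.4 in Saos-2 against 57.8 in U2OS. The next in Saos-2 were ZNF837 (40.8, and 27.5 in U2OS), ZNF558 (35.3 and 16.7) and ZNF350 (35.1 and 7.95), a KRAB repressor that binds BRCA1. The next in U2OS were ZNF226 (43.6, and 14.9 in Saos-2), ZNF576 (39.7 and 5.33) and ZNF285 (34.3 and 12.5), all of the same cluster as ZNF235. Among the 30 members with no entry, where a hotspot at either end was taken, ZNF473 had 60.4 in Saos-2 against 65.9 in U2OS, above ZNF235 in each line, at a site that also overlaps VRK3. ZNF223 had 34.9 in U2OS and 22.4 in Saos-2. Over the 153 starts with a hotspot in both lines, the significance was higher in Saos-2 at 73 and in U2OS at 80. Levels of significance depend on depth, so the order within a line carries more than the difference between lines.

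**Figure D3:**
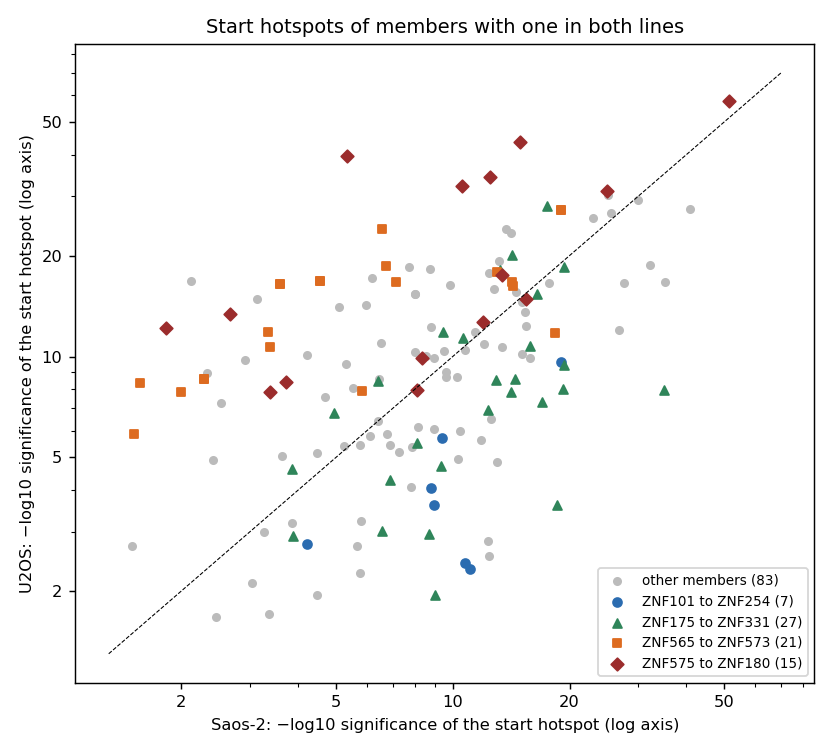
Significance (−log10, as deposited) of the strongest start hotspot in Saos-2 and in U2OS, log axes, for the 153 members with a start hotspot in both lines; colours mark 4 clusters and the dashed line is equality. All 7 members from ZNF101 to ZNF254 lie on the Saos-2 side of the line and 20 of 21 members from ZNF565 to ZNF573 on the U2OS side.

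Members within 500 kb of each other were joined into clusters of at least 3, which gave 10 clusters with 228 members and left 12 members outside. The lines differed by cluster far more than over the chromosome. Relative to the ratio of the lists, hotspots in the member windows were fewer in U2OS, with an interval below 0, from ZNF101 to ZNF254 (log2 −1.52, counting interval −2.40 to −0.69), from ZNF653 to ZNF791 (−0.99, −1.72 to −0.30) and from ZNF175 to ZNF331 (−0.75, −1.30 to −0.21). From ZNF414 to ZNF846 the ratio was −0.88, with an interval of −1.97 to 0.16. Only ZNF302 to ZNF792 (0.70) and ZNF565 to ZNF573 (0.15) lay above 0, and both intervals included 0. After joining hotspots closer than 150 bp, the value from ZNF565 to ZNF573 was −0.07, and with lists of equal length that from ZNF575 to ZNF180 went from −0.25 to 0.05, so neither direction is fixed by hotspot numbers. The same ratio was taken outside the windows, up to 1 Mb around each cluster, as a measure of the surrounding DNA. It was also low around ZNF101 to ZNF254 (−0.68, −1.29 to −0.08) and ZNF653 to ZNF791 (−0.60, −1.03 to −0.16). Around ZNF175 to ZNF331 it was 0.23, with an interval of −0.25 to 0.72. In the first and second of these clusters the surroundings lay below 0 as the members did, and in the third their interval included 0. The intervals of windows and surroundings overlapped in each of them. The number of DNA copies of each region in the 2 lines was not measured here, and its part in these ratios was not tested.

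**Figure D4:**
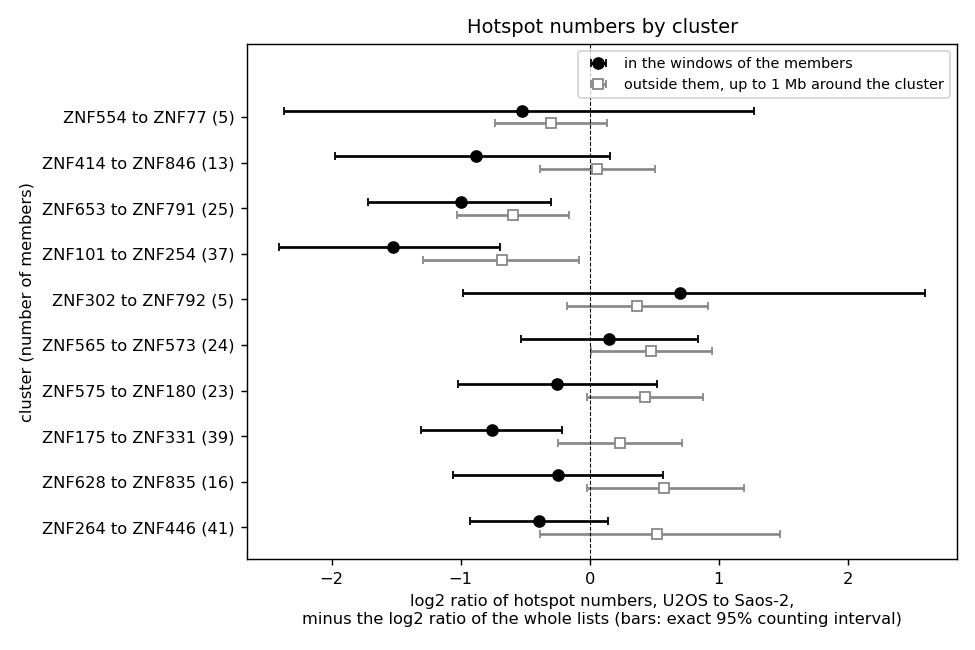
Log2 of hotspot numbers, U2OS over Saos-2, minus that of the whole lists, for each cluster along chromosome 19 (number of members in brackets); filled circles are the member windows, open squares the rest of the region up to 1 Mb around the cluster, and bars are exact 95% counting intervals. The member windows lie left of their surroundings in every cluster but ZNF302 to ZNF792, for example from ZNF175 to ZNF331 at −0.75 against 0.23, and the intervals of windows and surroundings overlap in all 10.

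The cluster from ZNF101 to ZNF254 (chr19:19668153-24129968, 37 members) was the one in which the lines differed most. It includes ZNF91, which represses SVA and other retrotransposons, and ZNF93, which represses LINE elements. Saos-2 had 42 hotspots over 17627 bp in its windows and U2OS had 18 over 4557 bp, which is 3.87-fold more covered bases in Saos-2. Covered bases were more in Saos-2 for 25 members and in U2OS for 4, with the other 8 at 0 in both. Of the 37 members, 16 were called higher in Saos-2 and 3 in U2OS, against 8.66% and 20.2% of all protein-coding genes. The surplus was larger away from the starts. At a start, or at either end of a member with no entry, there were 12 hotspots over 4587 bp in Saos-2 against 13 over 2644 bp in U2OS. Elsewhere there were 30 hotspots over 13040 bp in Saos-2 and 5 over 1913 bp in U2OS. Of those 30, U2OS overlapped 4, and 8 were 500 bp or wider, where U2OS had 1 of that width.

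Starts in that cluster were mostly empty in both lines. Of the 29 members with an entry, 15 had no start hotspot in either line, 7 had it in both, 2 only in Saos-2 and 5 only in U2OS. At the 7 shared starts Saos-2 had more covered bases and the more significant hotspot at every member, with a median significance of 9.37 against 3.60. ZNF91 had the strongest of them, at 18.97 in Saos-2 against 9.60 in U2OS, with 343 and 314 bp. ZNF93 followed in Saos-2 with 11.1 and 328 bp, and had 2.32 and 146 bp in U2OS. The promoters of this cluster resemble each other closely. CCAAT stood in all 29, the median CpG ratio was 0.44 against 0.76 in protein-coding genes, and the median pairwise identity over the 300 bases was 78.7%, where members of different clusters had 59.0%. The most alike were ZNF714 and ZNF431 at 91.0%. The printed stretches of ZNF91 and ZNF208 were 88.8% identical, and ZNF208 had no start hotspot in either line. How the authors treated reads that match several places is not given in the sources used here, and its part in the empty starts was not tested.

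Inside the cluster, runs of neighbours had no U2OS hotspot at all. They were ZNF90, ZNF486, ZNF737, ZNF626 and ZNF66, of which 4 had a Saos-2 hotspot, then ZNF208, ZNF257, ZNF676, ZNF729 and ZNF98, again with 4, and ZNF99, ZNF723, ZNF728, ZNF730 and ZNF724, with 1. The member with the most covered bases, ZNF99, belonged to the last run, so its Saos-2 hotspots stood beside 4 members that were empty in both lines. It held 4 Saos-2 hotspots. A compact group of 1702, 622 and 821 bp lay between chr19:22755913 and chr19:22759142, with significances of 17.0, 13.8 and 11.7, and the fourth, of 201 bp, lay within the pseudogene BNIP3P34. ZNF729 held 5 Saos-2 hotspots over 2339 bp. Of these, 4 lay close together, from chr19:22314482 to chr19:22317255, and the fifth lay within another pseudogene of the same family, BNIP3P31. Wide hotspots inside the gene also set ZNF431 (1134 bp with a significance of 44.0 in Saos-2, 892 bp with 8.35 in U2OS), ZNF714 (1093 and 267 bp), ZNF738 (1079 bp and no counterpart) and ZNF100 (832 bp and none). ZNF43 had 1 hotspot in each line, of 297 and 203 bp, neither at a start.

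From ZNF175 to ZNF331 (chr19:51571283-53580269, 39 members) the Saos-2 surplus was spread over starts and the rest. Saos-2 had 70 hotspots over 23520 bp and U2OS 51 over 14949 bp, and covered bases were more in Saos-2 for 30 members and in U2OS for 8. At starts there were 43 hotspots over 16635 bp against 39 over 11974 bp, so start hotspots were alike in number and wider in Saos-2. Elsewhere there were 27 against 12. Covered bases at the start were more in Saos-2 for 18 of the 27 members with a start hotspot in both lines, with a median of 528 bp against 355 bp. The median width of single hotspots at starts was 330 bp in Saos-2 against 280 bp in U2OS. The calls among the 39 members were 12 higher in Saos-2 and 2 in U2OS, against 8.66% and 20.2% of all protein-coding genes. ZNF665 had the most hotspots, 10 over 2668 bp in Saos-2 and 3 over 537 bp in U2OS, of which 5 Saos-2 hotspots lay within chr19:53181853-53183576. ZNF83 had 7 over 2505 bp and 2 over 434 bp, with both its annotated starts covered in each line but less widely in U2OS. ZNF525 had 1671 against 564 bp. ZNF808, a repressor of transposable elements needed for the development of the pancreas, had 2053 and 1178 bp and start significances of 10.7 and 11.3, and was not called. ZNF649 had 999 and 573 bp, an order that turned with windows of 1 kb (58 bp more in U2OS). ZNF331, an imprinted gene at the end of the cluster, went the other way, with 767 bp in Saos-2 against 1246 bp in U2OS, also not called. In the top 50% of each list its difference, U2OS minus Saos-2, was −88 bp.

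From ZNF653 to ZNF791 (chr19:11483429-12633834, 25 members) every member had a Saos-2 hotspot and all but ZNF440 a U2OS hotspot. Saos-2 had 47 hotspots over 12126 bp and U2OS 29 over 8248 bp. The larger gap lay away from starts, with 20 hotspots over 4253 bp in Saos-2 and 7 over 1704 bp in U2OS, all 7 of which Saos-2 shared. Starts had 27 and 22 hotspots, and the significance was higher in Saos-2 at 12 of 22 shared starts and in U2OS at 10. All 9 calls among the 25 members were in the direction of Saos-2, as were 8.66% of all protein-coding genes, with 20.2% in that of U2OS. The surplus was largest for ZNF44 (1288 and 553 bp).

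The opposite pattern stood from ZNF565 to ZNF573 (chr19:36182060-37779586, 24 members). U2OS had 45 hotspots over 21129 bp and Saos-2 33 over 10708 bp, a 1.97-fold excess of covered bases in U2OS. Over the whole lists U2OS also covered more, at 17.8 Mb against 14.2 Mb. Of the 24 members, 13 were called higher in U2OS and none in Saos-2, against 20.2% and 8.66% of all protein-coding genes. Covered bases were more in U2OS for 21 members, more in Saos-2 for 2 and 0 in both for ZNF382. Most of these members were open in both lines, since 21 of 23 with an entry had a start hotspot in each. The extent differed instead: covered bases within 1 kb of the starts were more in U2OS for 17 of these 21 members and in Saos-2 for 3. Their medians were 728 and 484 bp. Single hotspots at starts in the cluster had a median width of 440 bp in U2OS and 212 bp in Saos-2. The significance of the strongest start hotspot was higher in U2OS at 20 of 21, with medians of 16.4 and 4.56. Hotspot numbers outside the windows also leaned to U2OS here, by 0.48 (log2, relative to the lists), and their part in the result was not tested.

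Many starts in that cluster face each other. Of the 7 pairs of members on opposite strands with starts within 1 kb, 6 lay here. ZNF565 and ZNF146, a gene whose product consists almost only of zinc fingers, share 1 hotspot of 766 bp in Saos-2 (significance 19.004) and 788 bp in U2OS (27.3). Between ZNF829 and ZNF568 the covered bases were 525 (strongest hotspot 4.56) against 728 (16.8), and between ZNF569 and ZNF570 they were 187 (2.29) against 744 (8.57). ZNF790 and ZNF345 had a strongest start hotspot of 3.59 in Saos-2 against 16.4 in U2OS. ZNF461 and ZNF567 had 201 against 570 bp at the start of ZNF461. The exception was ZNF529 with 484 bp (18.3) in Saos-2 against 294 bp (11.7) in U2OS. That hotspot lay at another annotated start of ZNF529, and the start that faces ZNF382 at a distance of 56 bp had none within 1 kb in either line. The pairs share their hotspots, so they are not separate observations of the difference.

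**Figure D5:**
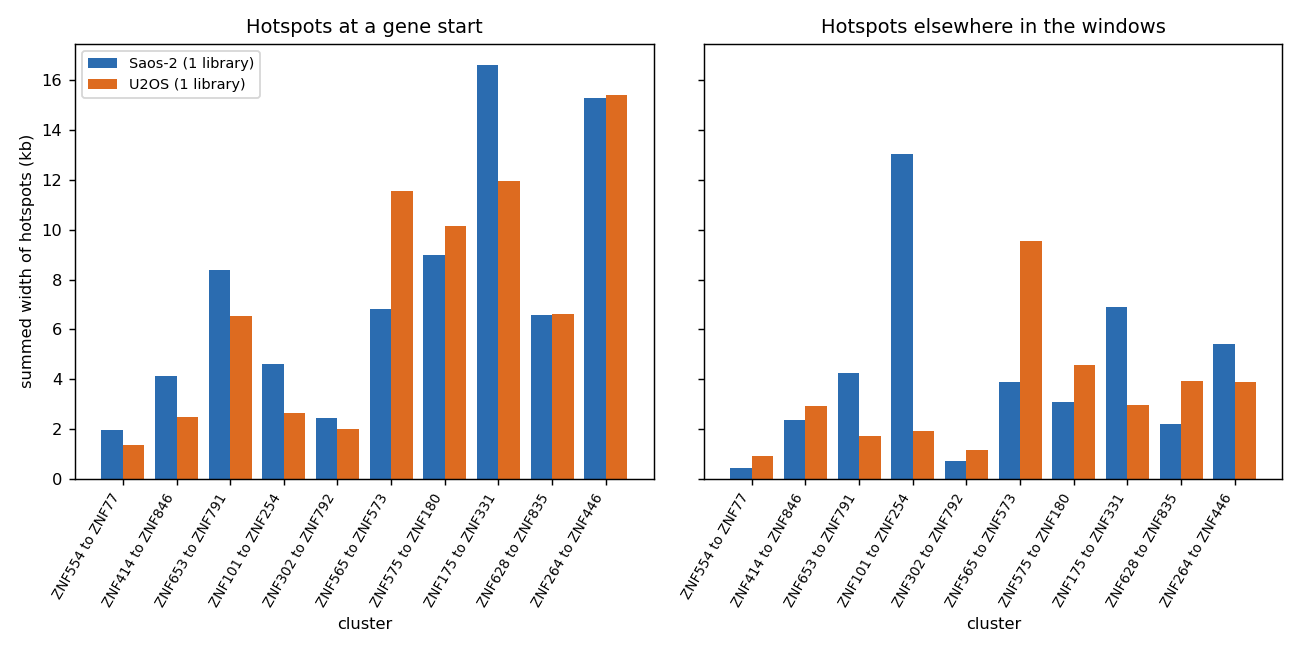
Summed width of hotspots at a gene start (left) and elsewhere in the member windows (right) for each cluster, in kb, in Saos-2 (blue) and U2OS (orange), 1 library each. Away from starts, ZNF101 to ZNF254 stands at 13040 bp in Saos-2 against 1913 bp in U2OS, and ZNF565 to ZNF573 at 3888 bp against 9567 bp.

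The other large clusters differed less. Their covered bases stand against 14.2 Mb in Saos-2 and 17.8 Mb in U2OS over the whole lists. From ZNF575 to ZNF180 (23 members) there were 30 hotspots in Saos-2 against 31 in U2OS, over 12040 and 14687 bp, yet the significance was higher in U2OS at 13 of 15 shared starts. ZNF224, a repressor studied in leukaemia, had a start hotspot of 91 bp (1.83) in Saos-2 against 331 bp (12.2) in U2OS. ZNF180 had no Saos-2 hotspot in its window and 4 in U2OS, an 820 bp hotspot over its start (20.7) and 3 others near its 3′ end. From ZNF628 to ZNF835 (16 members) there were 27 and 28 hotspots over 8793 and 10553 bp. Of its members 1 was higher in Saos-2 and 4 in U2OS, near the 8.66% and 20.2% of all protein-coding genes. The largest difference was that of ZNF582, with 470 against 2339 bp. ZNF524 and ZNF865 have overlapping windows and share the same 6 Saos-2 and 5 U2OS hotspots. From ZNF264 to ZNF446 (41 members, the most of any cluster) there were 63 and 59 hotspots over 20617 and 19229 bp, and 38 members had a hotspot in both lines. ZNF837 had 1812 and 2030 bp there, and with lists of equal length its difference, U2OS minus Saos-2, was −71 bp. ZNF274, which binds the 3′ ends of zinc finger genes and recruits SETDB1, had start hotspots in both lines. Together they covered 879 bp in Saos-2 against 431 bp in U2OS, and the strongest had significances of 10.3 and 4.95.

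The 3 smaller clusters had few hotspots each. From ZNF414 to ZNF846 (13 members) there were 21 and 14, over 6491 and 5380 bp. Covered bases at the start were more in Saos-2 for 7 of 8 members with a start hotspot in both lines. The 5 members with TGACGTCA stood here. ZNF266, ZNF426 and ZNF121 had a start hotspot in both lines, of 369 and 266 bp, 306 and 272 bp, and 206 and 86 bp. ZNF561 and ZNF562 had start hotspots only in Saos-2, with 471 and 193 covered bp. From ZNF554 to ZNF77 (5 members) there were 7 and 6, and from ZNF302 to ZNF792 (5 members) 5 and 10. The 12 members outside clusters had 23 hotspots in Saos-2 against 35 in U2OS, and 4 were called higher in U2OS and 1 in Saos-2. Over all protein-coding genes 20.2% and 8.66% were called in the same order. ZNF536, a repressor of neuronal differentiation with a window of 507995 bp, had 1 Saos-2 hotspot of 432 bp (18.7). That site was also the strongest of 9 U2OS hotspots, at 581 bp (32.3). The other 8 U2OS hotspots had no Saos-2 counterpart, and no start of ZNF536 was covered in either line.

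A minority of members, from several clusters, had a wide hotspot near the 3′ end, in the part of the gene that usually encodes the fingers. The last 10 kb before the 3′ end, away from starts, was looked at after the data had been seen. A hotspot lay there in both lines for 14 of 210 members, in Saos-2 only for 14, in U2OS only for 8 and in neither for 174. The background was 6.3% (both), 4.82% (Saos-2 only), 5.86% (U2OS only) and 83% (neither), so the presence of a hotspot was near the background. Their width was not: 8 of 31 Saos-2 hotspots (25.8%) and 9 of 29 U2OS hotspots (31.0%) in these stretches were 500 bp or wider, against 7.86% and 6.62% in genes of other chromosomes and 9.68% and 12.8% in other genes of chromosome 19. These are small numbers from 1 library a line. The widest were those of ZNF607 (1626 bp in U2OS and 283 bp in Saos-2), ZNF699 (1511 bp in U2OS, and 873 and 502 bp side by side in Saos-2), ZNF283 (1423 and 1151 bp) and ZNF404 (1268 and 1186 bp in the same order). Of those present in both lines, ZNF714 (267 bp in U2OS and 1093 bp in Saos-2) and ZNF566 (960 and 860 bp) followed. In U2OS only, they stood in ZNF565 (1174 bp with a significance of 43.2), ZNF582 (1053 bp, 26.8) and ZNF568 (665 bp, 8.57). ZNF100 had such a hotspot only in Saos-2. Where both lines had it, the U2OS hotspot could be much stronger, as in ZNF283 (57.6 against 9.67), ZNF404 (37.6 against 13.02) and ZNF566 (40.7 against 16.9). In ZNF714 the values were near equal (5.70 in U2OS and 5.62 in Saos-2). At narrower shared hotspots of these stretches either line could be ahead. Saos-2 was stronger in ZNF808 (11.1 against 4.04) and ZNF44 (6.95 against 3.30), and U2OS in ZNF490 (12.7 against 2.93).

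Some members are known to be silenced by promoter methylation in tumours, and 8 of them were listed. ZNF177, ZNF382 and ZNF154 had no hotspot in their windows in either line. ZNF667, ZNF671 and ZNF471 had a start hotspot in both lines of similar significance, at 9.51 and 10.4, 4.70 and 7.58, and 24.5 and 25.5, where ZNF471 has no start entry and either end was used. ZNF582 had 2.12 in Saos-2 against 16.8 in U2OS. ZNF132 had a 431 bp hotspot of 24.9 in Saos-2 and none in U2OS. A window without a hotspot was thus seen for 3 of these 8 in both lines, where 13 of all 240 members were without. The list is short and methylation was not measured.

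The partners of KRAB repression were read from the same lists, on whatever chromosome they lie. All 16 had a hotspot in their window in Saos-2 against 15 in U2OS, the exception being the deacetylase HDAC2 with 863 bp in Saos-2 and none in U2OS. Over all protein-coding genes 74.8% had one in Saos-2 and 81.4% in U2OS. The median window was 60.7 kb for the partners and 44.1 kb for all protein-coding genes. HDAC2 was the 1 partner higher in Saos-2 (6.25%), and CBX3, DNMT1, PPHLN1 and TASOR were higher in U2OS (4 of 16, 25%). These counts were near the shares over all protein-coding genes, 8.66% and 20.2%. TRIM28, at the far end of chromosome 19, had 1775 and 2029 bp, and SETDB1 had 950 and 877 bp with start significances of 26.8 and 26.0. The zinc finger genes of chromosome 19 with other symbols (25 genes, among them PEG3, ZIM2, ZFP and ZSCAN genes, and ZFP36 whose fingers are of another type) had 0 calls in Saos-2 against 10 in U2OS, where the shares over all protein-coding genes were 8.66% and 20.2%. The largest were the overlapping imprinted genes ZIM2 (0 and 2805 bp) and PEG3 (0 and 2752 bp), then ZFP82 (0 and 1717 bp). None of these 25 genes lies within the clusters from ZNF653 to ZNF791, ZNF101 to ZNF254 or ZNF175 to ZNF331.

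As a check of the labels, 9 of 10 osteoblast genes had a hotspot in both lines, with none at SPP1, where 70.5% of all protein-coding genes had one in both. Blood and epithelial genes did too: 3 of 4 blood genes in each line, with none at HBB, and 3 of 3 epithelial genes in Saos-2 against 2 in U2OS. A hotspot within 10 kb of a gene therefore does not set these cell types apart here.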

How the data were processed

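DNase-seq was done on nuclei of Saos-2 and U2OS cells, 1 library per line. Per the submitters' processing notes, Trimmomatic 0.38, BWA 0.7.15 and hg38 were used; the hotspot caller and the treatment of duplicate and multiply matching reads are not given in the sources used here. The deposited lists give per hotspot its position and a −log10 value, taken as its significance from the lowest value of 1.30, which is that of a false discovery rate of 0.05 (highest 100). The deposited score, which is the −log10 value times 10 and rounded, was not used. Read depth is unknown. Starts were converted to count from 1.

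The 240 members and all lists were chosen with earlier results of these data known. Gene spans and promoters came from RefSeq on GRCh38.p14, the primary assembly of hg38. A start hotspot lies within 1 kb of a start in the promoter table or of the 5′ end of the span, or of either end for members with no entry. Identity is that of a global alignment (Biopython 1.88). Shares have Wilson intervals and ratios exact 95% intervals (scipy 1.17.1). The counting steps were tested on simulated hotspots. By rule, the text names the 8 members per line with the largest surplus of covered bases, the 4 with the most significant start per line (among members with an entry), the 4 with the most hotspots and 10 fixed members; other members named were chosen after their values were seen. No proteins were used here, so the planned count of zinc fingers was not made. Alternatives changed the threshold, the length of the lists, merging, the window, the fold, the overlap, the distance from the start and the gap between clusters.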

Additional observations from a re-analysis of the deposited data

How the results depend on the processing

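No paired analysis was possible because each line was represented by 1 library. Of 148 values recomputed under an alternative for the results over all members and clusters, 130 kept within 1.5 times the count or within the counting interval, and 18 moved further. The log2 ratio of 2 clusters changed sign, from ZNF565 to ZNF573 to −0.07 with merged hotspots and from ZNF575 to ZNF180 to 0.05 with equal lists, both within the counting interval. With only the top 50% of each list, Saos-2 had 228 and U2OS 206 hotspots in the windows, and members with a hotspot numbered 35 (Saos-2 only), 23 (U2OS only) and 32 (neither). At the starts the same setting gave 25 (Saos-2 only), 28 (U2OS only) and 49 (neither). With 50 kb on either side the window classes held 11 (Saos-2 only), 2 (U2OS only) and 3 (neither) members, and neither line had a hotspot for 22 members with 1 kb and for 21 with each hotspot given to the nearest member only. At 3-fold, 25 members were higher in Saos-2 and 18 in U2OS. With an overlap of at least 50% of both hotspots, 51.9% of Saos-2 and 58.6% of U2OS hotspots were shared. With hotspots merged within 150 bp, 1 cluster lay above the ratio of the lists. With lists of equal length U2OS had 283 hotspots in the windows, and the calls were 50 in Saos-2 and 31 in U2OS. Shares over all protein-coding genes were not recomputed under any alternative, so these calls and classes have no background to be set against. An alternative chosen after seeing the data, with only the starts of the promoter table, moved no start class beyond 1.5 times. For the named members, 175 of 217 values kept within the same limits and 42 moved. Members whose difference changed sign under an alternative were ZNF837, ZNF558, ZNF226, ZNF331, ZNF43 and ZNF649, none of them called. Depth is unknown, so weak hotspots of either line may be missing from the other list.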
